A study of Mus musculus with 6 samples.

Results

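CD200 is a membrane glycoprotein that holds back immune cells which carry its receptors. The 4 genes described here, of 32285 in the deposited feature list, are the ligand gene Cd200 and the receptor genes Cd200r1, Cd200r4 and Cd200r3, taken as the rows whose gene symbol equals one of these names. CD200R1 is the inhibitory receptor: its cytoplasmic tail recruits the adaptors Dok2 and Dok1, which engage RasGAP and dampen Ras signalling. Mouse CD200R3 and CD200R4 have short tails and pair with the activating adaptor DAP12, encoded by Tyrobp. In brain, neurons and endothelium are the classical sources of CD200 and microglia the classical receivers; neurons and endothelium lie outside the cells sampled here.

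The series profiled CD45+ cells, sorted without DAPI and with the nuclear stain RedDot-1, from tumours grown in female C57BL/6J mice of 10-12 weeks after a breast cancer brain metastasis line was placed in the brain (BrM, 3 libraries) or in the mammary fat pad (MFP, 3 libraries), by droplet single-cell RNA sequencing of transcript 3' ends. The labels do not name the line, which both sites share. Whether each library stands for a mouse of its own is not stated, so each p-value reflects how far these libraries vary, and that variation may be technical. The 4 genes were chosen by their UMI counts per cell class and site in these same libraries. Levels across cell classes therefore carry no test, and the p-values between sites describe the contrast and are no independent support for it.

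After filtering, 43477 cells remained of 49518 deposited barcodes, and 41435 of them entered a class by marker transcripts. Library totals ran from 50692794 to 70944735 UMIs (unique molecular identifiers, each counting 1 captured transcript). Libraries split into 2 kinds that the site labels do not explain: BrM 1, MFP 1 and MFP 2 had the 3 lowest totals and 0.915% to 3.31% myeloid cells, while BrM 2, BrM 3 and MFP 3 had 48.2% to 63.7%. Any pair of libraries shared 10 to 39 cell barcodes. Levels are given as CPM, counts per 1000000, the share of a gene among all UMIs of the class in that library. Intervals are 95% exact Poisson for CPM and cover counting error only.

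All 4 genes lie on mouse chromosome 16 (build GRCm38, GENCODE annotation) and are protein coding. Cd200r1 spans chr16:44765736-44794978, Cd200r4 chr16:44811733-44839150 and Cd200r3 chr16:44943678-44981380, all on the plus strand within 216 kb. The neighbouring Cd200r2, which is no member here, lies between the last 2. Cd200 lies on the minus strand at chr16:45382135-45409053, 401 kb beyond the receptor cluster. The promoters of Cd200r4 and Cd200r3 are shown because they are close relatives while 1 gene was seen in many cell classes and the other in few cells. Capitals mark their longest common run, 32 bases. Sequences are from RefSeq (GRCm38.p6), 250 bases before to 50 after a transcript start, 5' to 3', at chr16:44820478-44820777 and chr16:44943428-44943727, both plus strand. The Cd200r3 window sits at the outer start of the gene given above, whereas the Cd200r4 window lies inside the span given for that gene, so it is not the promoter of its outermost annotated start.
Cd200r4: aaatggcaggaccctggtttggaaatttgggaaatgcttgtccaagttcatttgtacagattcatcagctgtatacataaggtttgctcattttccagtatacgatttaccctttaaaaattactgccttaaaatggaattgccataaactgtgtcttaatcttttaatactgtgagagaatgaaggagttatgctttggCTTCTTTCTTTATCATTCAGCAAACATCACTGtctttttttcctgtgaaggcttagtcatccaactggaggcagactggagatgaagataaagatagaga
Cd200r3: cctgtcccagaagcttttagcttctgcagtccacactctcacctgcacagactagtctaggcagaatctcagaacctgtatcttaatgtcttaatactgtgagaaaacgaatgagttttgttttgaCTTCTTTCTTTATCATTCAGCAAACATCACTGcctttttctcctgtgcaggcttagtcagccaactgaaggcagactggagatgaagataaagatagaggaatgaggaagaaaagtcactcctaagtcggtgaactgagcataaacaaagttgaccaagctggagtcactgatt
The best local alignment of the 2 covered 156 columns, of which 89.7% were identical. Cd200 aligned with either over 46 columns, at 65.2% identity. On either strand, the letters AGATAA, bound by GATA factors, occurred 1 time in the promoters of Cd200, Cd200r3 and Cd200r4, and in 11.2% of 32851 mouse promoters of this length. The letters GAGGAA, bound by PU.1, occurred 2 times in Cd200r3, 1 time in Cd200, and had no match in Cd200r4, against 28.3% of promoters with a match. Such matches describe the sequence and mark no bound site.

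Cells kept held 2549 UMIs of Cd200, 3596 of Cd200r1, 6834 of Cd200r4 and 51 of Cd200r3. The ligand was highest in a small dendritic cell population. Cd200r1 was spread over T cells, some dendritic cells and Mrc1-high macrophages, and was low in the more numerous Mrc1-low macrophages. Cd200r4 was spread over T cells, NK cells and macrophages.

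Cd200 was highest in mature dendritic cells, a class gated on Ccr7, Fscn1 and companions and carrying 2549 CPM of Ccr7 and 1305 CPM of Fscn1. These 309 cells held 26.4% of all Cd200 UMIs. Their Cd200 level was 231 CPM in BrM 2 and 265 CPM in BrM 3, against 288 CPM in MFP 3, the only MFP library with 20 such cells or more. The 2 BrM libraries and the 1 MFP library were close to each other, and 69.6% of the pooled cells had a Cd200 UMI. Mature dendritic cells are activated antigen-presenting cells that carry tumour antigen to T cells. The receptors were nearly missing from them, with 1 UMI of Cd200r1 and 2 of Cd200r4 in all.

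Next in order came plasmacytoid dendritic cells, at 31.4 ± 14.8 CPM (SD, n = 4 libraries), and Foxp3-negative Cd4 T cells, at 31.4 ± 13.5 CPM (n = 6). These did not differ beyond their spread, and B cells, at 20.2 ± 18.7 CPM (n = 6), overlapped both. Cd8 T cells averaged 10.1 ± 5.98 CPM and Foxp3-positive Cd4 T cells, the regulatory T cells, 12.7 ± 10.7 CPM (n = 6 each). NK cells held 14 Cd200 UMIs in 9572 cells. The shares of NK cells with a UMI, 0.0433% to 0.324% per library at a median of 4582 UMIs per cell, serve as the background. Where these UMIs came from was not tested. Mrc1-low macrophages, 5153 cells, held 32 UMIs, and microglia of BrM 2 and BrM 3 stood at 0.366 and 0.290 CPM.

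Among Cd4-positive T cells, Cd200 was higher in those with a Pdcd1 UMI in every library but BrM 3. It was 37.5, 57.6 and 25.7 CPM in Pdcd1-detected cells of BrM 1, 2 and 3, against 34.6, 34.1 and 61.9 CPM in those of MFP 1, 2 and 3. Pdcd1 encodes the checkpoint receptor PD-1. Cells without a Pdcd1 UMI had 7.49, 12.4 and 25.6 CPM in BrM libraries and 9.97, 11.3 and 23.0 CPM in MFP libraries. In BrM 3 the subsets were level, from 40 UMIs with Pdcd1 detected and 28 without. Subsets of Cd4-positive T cells were chosen after values had been seen, so these are descriptions.

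**Figure D1:**
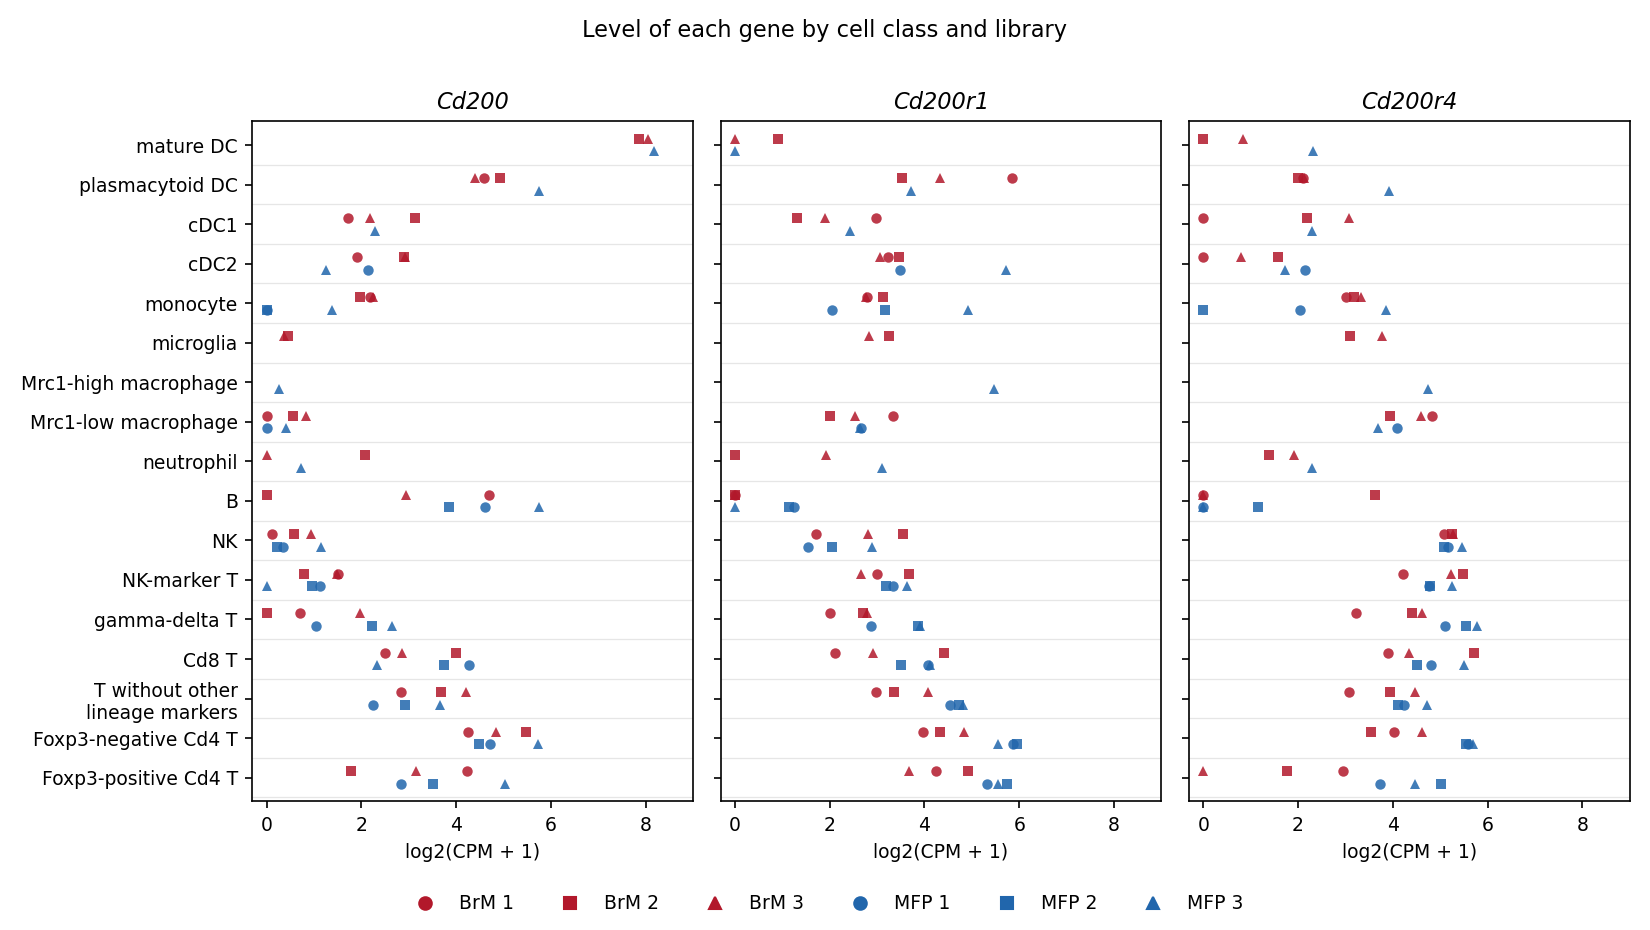
Level of Cd200, Cd200r1 and Cd200r4 in 17 cell classes on a log2(CPM + 1) axis, 1 point per library with 20 cells or more of the class, BrM in red above MFP in blue. Mature dendritic cells stand apart for Cd200 at 231 to 288 CPM, and NK cells form a tight band for Cd200r4. Blue points lie right of the red ones for both receptors in Cd4 T cells. That order was shared by 17% of genes tested in the Foxp3-negative and 17.4% in the Foxp3-positive class.

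Cd200r1, the inhibitory receptor, was broad and low. Mrc1-high macrophages had 42.9 CPM in MFP 3, the only library with 20 such cells or more, where Cd4-positive T cells had 46.1 CPM and type 2 conventional dendritic cells 51.8 CPM. Mrc1 encodes a mannose receptor of resident-like macrophages, and 331 of the 356 cells came from that 1 library, so neither site nor replicate can be compared in this class. Mrc1-low macrophages, 5153 cells, averaged only 5.51 ± 2.23 CPM (SD, n = 5 libraries). Foxp3-negative Cd4 T cells averaged 37.7 ± 19.9 CPM and Foxp3-positive Cd4 T cells 32.7 ± 15.9 CPM (SD over both sites, n = 6 each), with overlapping ranges. Plasmacytoid dendritic cells stood at 24.5 ± 21.4 CPM (n = 4) and type 2 conventional dendritic cells at 17.5 ± 19.2 CPM (n = 5). In that last class BrM 1, 2 and 3 had 8.32, 10.0 and 7.33 CPM, against 10.2 CPM in MFP 1 and 51.8 CPM in MFP 3, so the wide spread came from 1 library. Fitted in these 5 libraries, Cd200r1 in type 2 conventional dendritic cells had a log2 difference of -2.12, BrM over MFP (SE 0.47, edgeR adjusted p = 0.202), and MFP 2, with 14 such cells, was not fitted. Microglia, gated on P2ry12, Sall1 and Sparc, had 8.60 CPM in BrM 2 and 6.09 CPM in BrM 3, and 9.32% of the pooled microglia had a Cd200r1 UMI. B cells held 2 UMIs in 1036 cells, a share of up to 0.518% per library, at a median of 3505 UMIs per cell, which serves as the background.

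Averaged over both sites, Cd200r4 was highest in NK cells, and it was broad over T cells. The order depended on the site. Cd4-positive T cells lay above NK cells in each MFP library, narrowly in MFP 3, and below them in each BrM library. NK cells had 32.9, 36.8 and 37.8 CPM in BrM 1, 2 and 3, against 34.8, 33.0 and 43.1 CPM in MFP 1, 2 and 3. The sites overlapped and the fitted difference in NK cells was 0.00 on the log2 scale (SE 0.14, edgeR adjusted p = 0.999). Cells with a UMI made up 14.4% of NK cells, against 3 UMIs in 1036 B cells. Foxp3-negative Cd4 T cells (32.1 ± 17.7 CPM), T cells with NK markers (31.2 ± 9.39), gamma-delta T cells (30.8 ± 16.9) and Cd8 T cells (29.6 ± 14.9, SD, n = 6 each) followed, with overlapping ranges. These SDs were taken over both sites and include any difference between the sites. Mrc1-low macrophages averaged 18.5 ± 6.49 CPM (n = 5), and mature, plasmacytoid and conventional dendritic cells lay at 1.59 to 5.98 CPM. Regulatory T cells stood below the other Cd4 T cells in each of the 6 libraries: 6.69, 2.43 and 0 CPM in BrM 1, 2 and 3, against 12.3, 31.4 and 21.2 CPM in MFP 1, 2 and 3. These 31 UMIs were too few to be tested.

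Cd200r3 was scarce. In mouse it is known from basophils and mast cells. Its 51 UMIs fell in 45 cells, of which 4 held 2 or more. The basophil and mast cell gate found 3 cells, all from BrM 2 and BrM 3, with Fcer1a, Ms4a2, Mcpt8 or Gata2 transcripts, and 2 of the 3 held Cd200r3, 5 UMIs in all, including the highest count in any cell, 4. In the 3 main classes it lay between 0 and 0.588 CPM in every library, too few to test. In Cd4-positive T cells it was 0.220, 0.521 and 0.378 CPM in BrM 1, 2 and 3, against 0.588, 0.388 and 0 CPM in MFP 1, 2 and 3, with overlapping sites.

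Across the means of 18 classes, the log2(CPM + 1) profiles of the 2 tested receptors had a Pearson r of 0.51, while Cd200 had an r of -0.20 with Cd200r1 and of -0.40 with Cd200r4. The classes share libraries and depth, so these values are descriptions. Among 8255 genes of at least 20 CPM in some class, the profiles most like that of Cd200 were those of Rab21, an endosomal GTPase (r = 0.90), Smarce1, a chromatin remodelling subunit (0.86), Foxp4 (0.83), Paxbp1 (0.83) and Slc41a1 (0.83), all 5 highest in mature dendritic cells. For Cd200r1 they were Ppp2r5c, a phosphatase subunit (r = 0.90), Arhgap39 (0.88), Cdipt (0.84), Eef1akmt1 (0.83) and Smim15 (0.81). For Cd200r4 they were Arhgap10 (r = 0.91), Znrf3 (0.90), Trip4 (0.89), Crim1 (0.87) and Crot (0.87).

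The comparison of brain with fat pad tumours asked whether the site moved the ligand and its receptors. In Cd4-positive T cells, the receptors were lower in BrM than in MFP libraries and the ligand was not separated. Cd200r1 had 15.2, 21.3 and 26.1 CPM in BrM 1, 2 and 3, against 55.6, 60.8 and 46.1 CPM in MFP 1, 2 and 3. Cd200r4 had 14.0, 8.85 and 21.2 CPM in BrM 1, 2 and 3, against 43.9, 44.6 and 45.5 CPM in MFP 1, 2 and 3. For both receptors every BrM library lay below every MFP library. That by itself is common in this class: 18.6% of the 10014 genes tested showed it in the same direction, and 9.55% in the other.

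Fitted with edgeR's quasi-likelihood test over all genes, Cd200r1 differed by -1.34 on the log2 scale, BrM over MFP (SE 0.23), and Cd200r4 by -1.48 (SE 0.24). Neither passed the threshold after Benjamini-Hochberg adjustment over all genes in edgeR (adjusted p = 0.0774 for both). In that fit 2 genes passed, 0.02% of those tested, although 2110 had an unadjusted p under 0.05. DESeq2 on the same sums called 409 genes, Cd200r1 (adjusted p = 0.000204) and Cd200r4 (adjusted p = 6.2e-05) among them. Leaving out BrM 1 brought both receptors past the edgeR threshold (adjusted p = 0.00571 for Cd200r1 and 0.00753 for Cd200r4), and leaving out BrM 3 did so for Cd200r4 (adjusted p = 0.0374). Without BrM 1, however, edgeR called 1865 of 9660 genes in this class, and other omissions gave adjusted p up to 0.325 for Cd200r1 (without BrM 2) and 0.311 for Cd200r4 (without MFP 2). With library kind as a term, the edgeR fit gave -1.41 for Cd200r1 (adjusted p = 0.0202) and -1.49 for Cd200r4 (adjusted p = 0.0158), among 298 genes called. Within the libraries of lower UMI total Cd200r1 was at -1.91 and Cd200r4 at -1.63; within those of higher total they were at -0.74 and -1.33, each kind having 1 library at one site, which is assumed to vary like the others.

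Cd200 in Cd4-positive T cells had 18.1, 34.9 and 25.7 CPM in BrM 1, 2 and 3, against 23.5, 20.8 and 48.5 CPM in MFP 1, 2 and 3. The sites overlapped, with a fitted log2 difference of -0.09 (SE 0.32, edgeR adjusted p = 0.901).

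**Figure D2:**
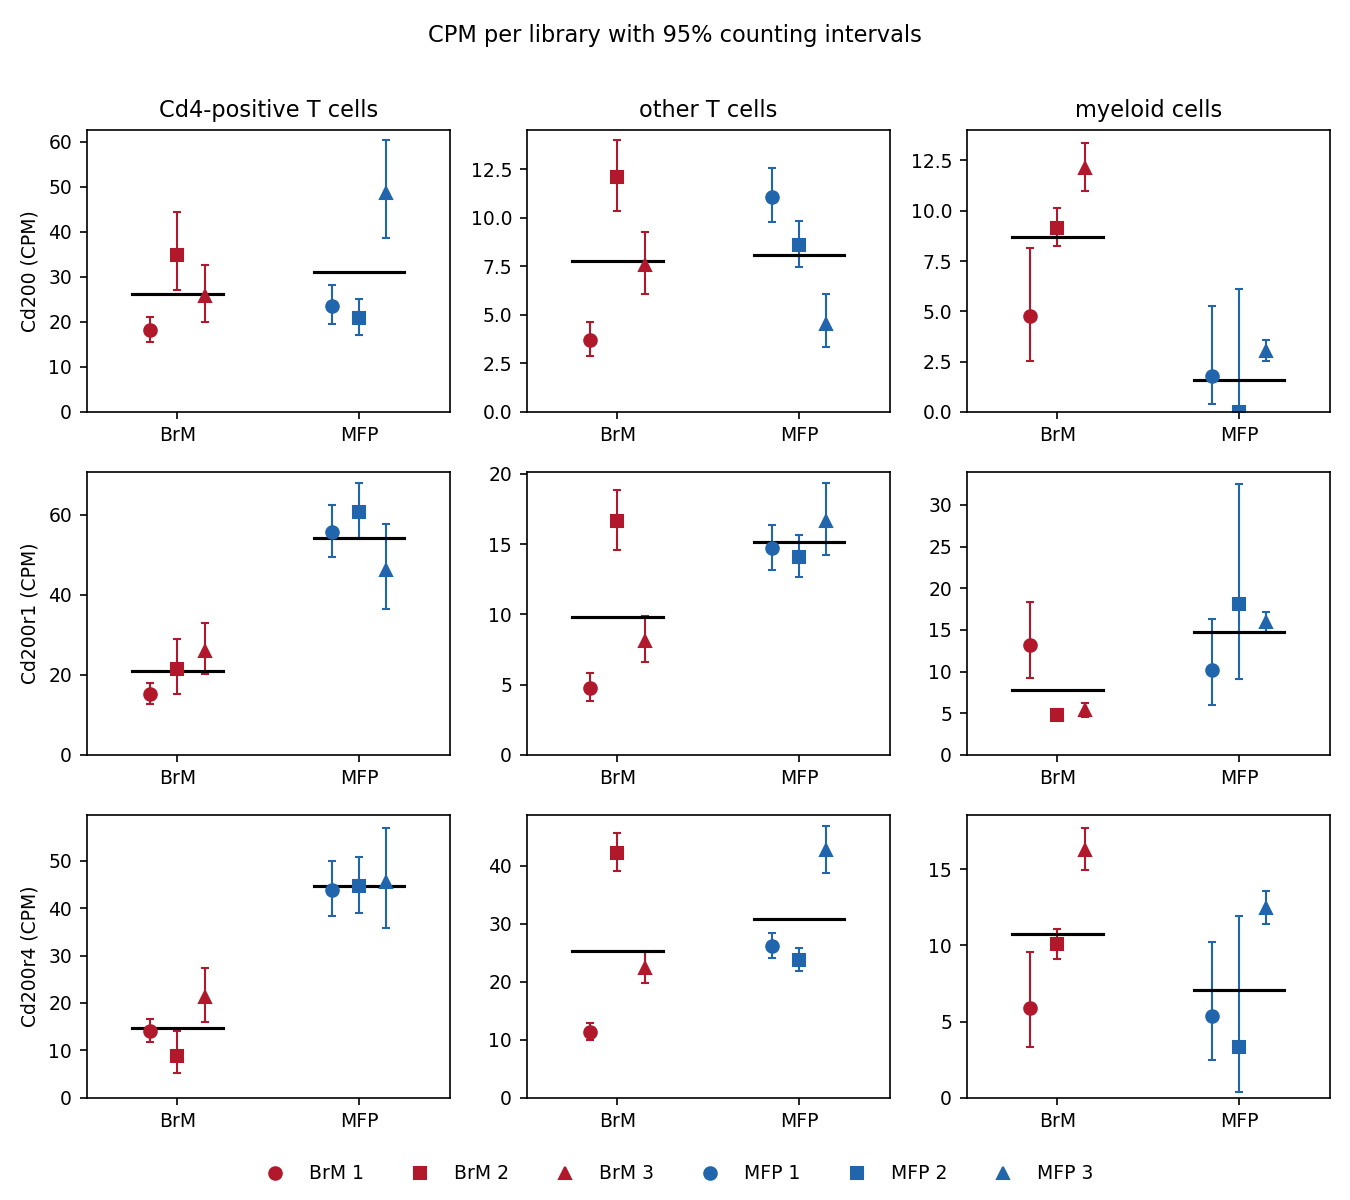
CPM of Cd200, Cd200r1 and Cd200r4 (rows) in Cd4-positive T, other T and myeloid cells (columns), 1 point per library with its exact Poisson 95% interval and a bar at the mean of each site, BrM left of MFP. In Cd4-positive T cells both receptors separate the sites, at 8.85 to 26.1 CPM in BrM libraries and 43.9 to 60.8 CPM in MFP libraries. That order was shared by 18.6% of genes tested in the class. Cd200 separates the sites in myeloid cells, as did 5.42% of genes there in that direction, with 3 UMIs in MFP 1 and 0 in MFP 2.

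The shares of cells gave the same order. With every Cd4-positive T cell thinned to 2000 UMIs, 3.98% ± 2.00 of BrM cells and 10.3% ± 1.11 of MFP cells (SD, n = 3 each) had a Cd200r1 UMI. For Cd200r4 the shares were 3.25% ± 1.77 in BrM and 8.00% ± 0.963 in MFP. The exact two-sided permutation p was 0.1 for both receptors, the smallest that 3 against 3 libraries allow. Before thinning, Cd200r1 was detected in 9.16% ± 1.86 of BrM and 20.9% ± 1.41 of MFP cells, and Cd200r4 in 6.89% ± 1.87 of BrM and 15.5% ± 1.31 of MFP cells. Thinned shares of cells with Cd200 were 4.01% ± 1.48 in BrM and 4.84% ± 1.31 in MFP (exact permutation p = 0.6).

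Markers of other receptor-bearing cells overlapped between sites in this class. Summed NK markers in Cd4-positive T cells were 107, 55.7 and 79.0 CPM in BrM 1, 2 and 3, against 76.8, 75.5 and 74.0 CPM in MFP 1, 2 and 3. Summed macrophage markers were 14.8, 479 and 414 CPM in BrM 1, 2 and 3, against 10.2, 12.0 and 366 CPM in MFP 1, 2 and 3, following the kind of library. Cd4 itself was lower in BrM, at 277, 277 and 283 CPM, against 361, 362 and 391 CPM in MFP libraries, and its part in the result was not tested beyond the stricter Cd4 gate, under which Cd200r1 was at -1.33 and Cd200r4 at -1.61 on the log2 scale.

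The difference was seen in both Foxp3 classes. Foxp3-negative Cd4 T cells had 20.5 ± 6.52 CPM of Cd200r1 in BrM and 54.9 ± 7.83 CPM in MFP libraries (SD, n = 3 each; log2 difference -1.39, SE 0.24, edgeR adjusted p = 0.113). Their Cd200r4 was 16.4 ± 6.48 CPM in BrM libraries and 47.7 ± 2.61 CPM in MFP (log2 difference -1.41, SE 0.23, edgeR adjusted p = 0.113). Both receptors were without overlap between sites in this class, as were 17% of 9857 genes in the same direction. Regulatory T cells had 19.6 ± 8.81 CPM of Cd200r1 in BrM and 45.7 ± 6.75 CPM in MFP (log2 difference -1.11, SE 0.37, edgeR adjusted p = 0.0888), from 202 and 151 cells, and again the sites did not overlap, as for 17.4% of 4521 genes in the same direction.

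Splitting the class by detection of a Pdcd1 UMI, with depth not matched between the subsets, showed where the transcripts lay. Pdcd1-detected cells had 26.0 ± 4.22 CPM of Cd200r1 in BrM and 78.3 ± 20.2 CPM in MFP libraries, and 22.1 ± 8.22 CPM of Cd200r4 in BrM and 69.1 ± 8.78 CPM in MFP libraries (SD, n = 3 each). These cells made up 26.6%, 39.1% and 46.0% of the class in BrM 1, 2 and 3, against 49.3%, 36.6% and 58.9% in MFP 1, 2 and 3. Cells without a Pdcd1 UMI had 10.9, 18.6 and 19.2 CPM of Cd200r1 in BrM 1, 2 and 3, against 28.6, 33.8 and 23.0 CPM in MFP 1, 2 and 3. Their Cd200r4 was 7.15, 5.18 and 12.8 CPM in BrM 1, 2 and 3, against 12.6, 21.2 and 17.7 CPM in MFP 1, 2 and 3, where BrM 3 lay just above MFP 1. Both receptors were thus higher in the Pdcd1-detected cells of every library.

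**Figure D3:**
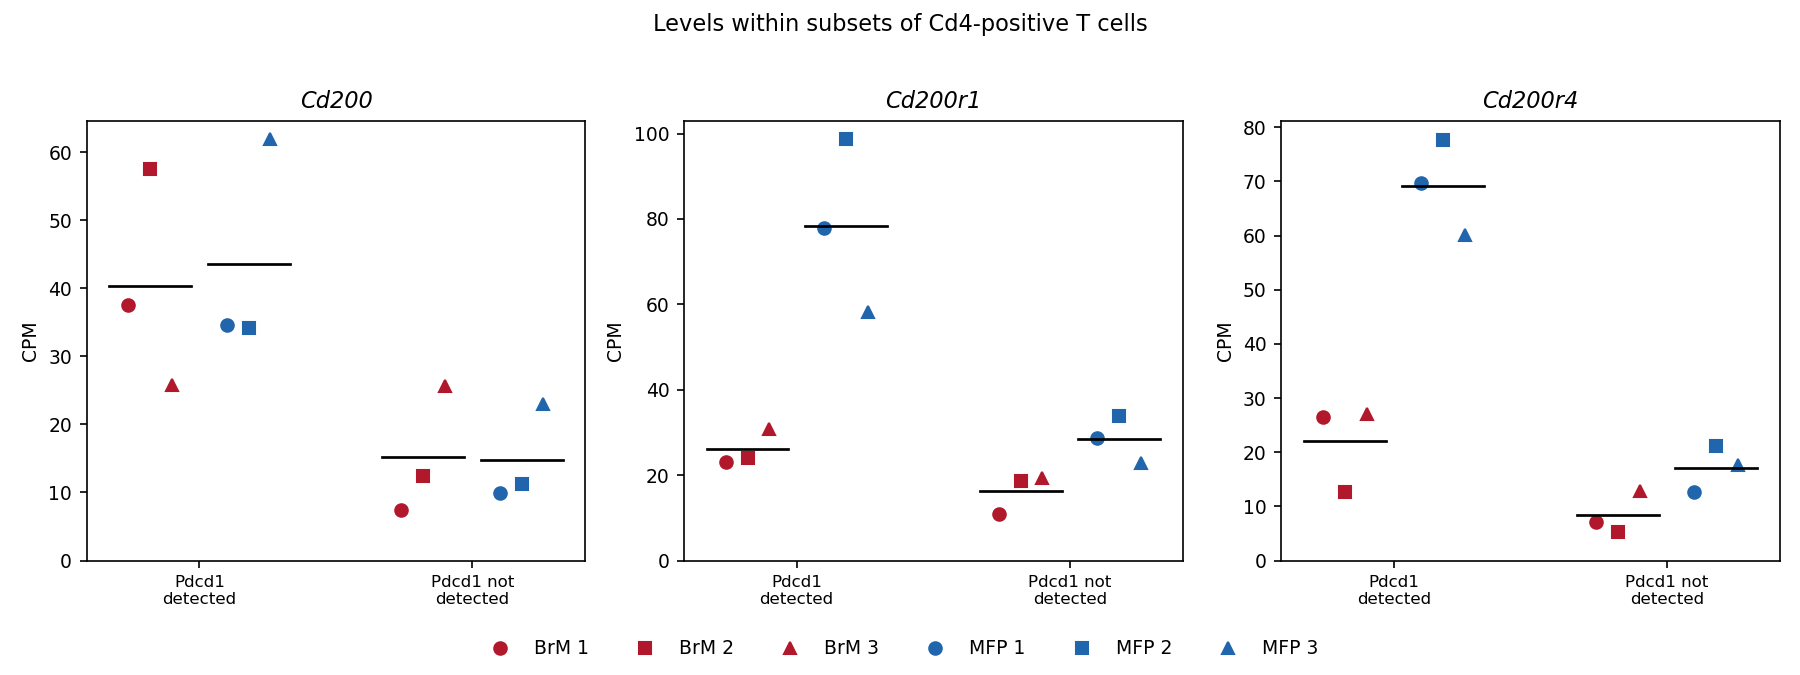
CPM of the ligand and the 2 receptors in Cd4-positive T cells with and without a Pdcd1 UMI, 1 point per library with bars at the means, BrM left of MFP. In Pdcd1-detected cells both receptors are at 12.6 to 30.9 CPM in BrM libraries and 58.2 to 98.7 CPM in MFP libraries, and Cd200 overlaps between sites in both subsets. The share of all genes without overlap was not counted in the subsets.

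Both receptors tended to be found in the same cells. Of Cd4-positive T cells with a Cd200r1 UMI, 28.3% also had a Cd200r4 UMI, against 7.86% of those without, at median depths of 5554.5 and 5119 UMIs. The share was higher among Cd200r1-detected cells in each of the 6 libraries, at 10.7% to 23.5% in BrM and 27.9% to 36.0% in MFP. The 2 receptor genes shared no identical window of 91 bases within the last 500 bases of their annotated transcripts. Matches that are shorter or hold mismatches were not examined.

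In the remaining T cells no member was separated by site. This class is not fully apart from Cd4 T cells: clustered by expression, 2867 of its 14796 cells fell in clusters named Cd4-positive T. Some may be Cd4 T cells whose Cd4 transcript was not captured, which was not tested. Cd200r1 had 4.72, 16.6 and 8.12 CPM in BrM 1, 2 and 3, against 14.7, 14.1 and 16.6 CPM in MFP 1, 2 and 3 (log2 difference -0.60, SE 0.40, edgeR adjusted p = 0.693). Cd200r4 had 11.3, 42.3 and 22.4 CPM in BrM 1, 2 and 3, against 26.2, 23.7 and 42.7 CPM in MFP 1, 2 and 3 (log2 difference -0.24, SE 0.45, edgeR adjusted p = 0.880). BrM 1 was the lowest library for both. Cd200 had 3.69, 12.1 and 7.54 CPM in BrM 1, 2 and 3, against 11.1, 8.58 and 4.55 CPM in MFP 1, 2 and 3 (log2 difference -0.06, SE 0.47, edgeR adjusted p = 0.974). Its order was opposite in the 2 kinds of library: -1.44 among libraries of lower UMI total, where BrM 1 stood alone, and 1.19 among those of higher total, where MFP 3 stood alone. These are descriptions, and the difference between the kinds was not tested. None of the 12031 genes tested in these cells passed edgeR's threshold (0%), 1030 had an unadjusted p under 0.05, and DESeq2 called 36.

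Gamma-delta T cells, innate-like lymphocytes, also had lower receptor levels in BrM libraries. Their Cd200r4 was 8.33, 20.1 and 23.5 CPM in BrM 1, 2 and 3, against 33.2, 46.0 and 53.6 CPM in MFP 1, 2 and 3, with no overlap, as for 8.43% of genes tested in this class in the same direction. The log2 difference was -1.52 (SE 0.39, edgeR adjusted p = 0.178; adjusted p = 0.000253 with library kind as a term, a fit that called 855 of 8758 genes). Leaving out single libraries gave adjusted p of 0.140 to 0.503 in edgeR. Cd200r1 in gamma-delta T cells was at 4.78 ± 1.56 CPM in BrM libraries and 11.3 ± 4.36 CPM in MFP libraries (SD, n = 3 each; log2 difference -1.41, SE 0.46, edgeR adjusted p = 0.274). T cells without Cd4, Cd8, Trdc or NK markers had 6.92, 9.26 and 15.8 CPM of Cd200r1 in BrM 1, 2 and 3, against 22.3, 25.6 and 27.1 CPM in MFP 1, 2 and 3 (log2 difference -1.27, SE 0.27, edgeR adjusted p = 0.104). That gap without overlap was shared by 11.5% of 9567 genes in the same direction. How many of these cells were Cd4 T cells without a captured Cd4 UMI was not tested, so the class is no separate case. Cd8 T cells, in contrast, overlapped for both receptors, with 51.3 CPM of Cd200r4 in BrM 2 and 44.2 CPM in MFP 3 as the highest libraries.

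In myeloid cells, Cd200 was the member that separated the sites. It had 4.78, 9.14 and 12.1 CPM in BrM 1, 2 and 3, against 1.80, 0 and 3.03 CPM in MFP 1, 2 and 3. Every BrM library lay above every MFP library, as for 5.42% of the 12500 genes tested in that direction, and the 0 in MFP 2, from 72 cells, allows up to 4.95 CPM. The log2 difference was 1.92 (SE 0.51), and it did not pass in edgeR over all genes (adjusted p = 0.602; 0.0120 with library kind as a term, among 387 genes called). No gene passed in myeloid cells in edgeR (0%), 832 had an unadjusted p under 0.05, and DESeq2 called 36.

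Most of the Cd200 in the myeloid class of BrM 2 and BrM 3 came from mature dendritic cells, of which there were 0, 126 and 161 in BrM 1, 2 and 3, against 1, 0 and 21 in MFP 1, 2 and 3. With them left out, a choice made after values were seen, Cd200 was 4.78, 2.76 and 2.30 CPM in BrM 1, 2 and 3, against 1.81, 0 and 1.40 CPM in MFP 1, 2 and 3. Mature dendritic cells also held 72 of the 133 Cd200 UMIs of MFP 3. Every BrM library thus still lay above every MFP library, at smaller values in BrM 2 and BrM 3. This order is not firm, since MFP 1 held 3 UMIs and the 0 of MFP 2 allows more than any of the BrM values. The share of all genes with this order was not counted for the reduced class. That class still held plasmacytoid and type 1 conventional dendritic cells, with 91 and 45 Cd200 UMIs over all libraries. Monocytes held 39 and Mrc1-low macrophages 32. The part of each cell type in the order was not tested.

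Cd200r1 in myeloid cells had 13.2, 4.79 and 5.34 CPM in BrM 1, 2 and 3, against 10.2, 18.2 and 15.9 CPM in MFP 1, 2 and 3 (log2 difference -1.01, SE 0.44, edgeR adjusted p = 0.748), with overlapping sites. Between libraries of lower UMI total the difference was 0.00, and between those of higher total -1.57, where MFP 3, which held the Mrc1-high macrophages, was the only MFP library. Monocytes had 5.87, 7.77 and 5.77 CPM of Cd200r1 in BrM 1, 2 and 3, against 3.12, 7.94 and 29.3 CPM in MFP 1, 2 and 3 (log2 difference -1.53, SE 0.47, edgeR adjusted p = 0.114), a difference carried by MFP 3. Cd200r4 in Mrc1-low macrophages was 27.4, 14.3 and 23.1 CPM in BrM 1, 2 and 3, against 16.1 CPM in MFP 1 and 11.8 CPM in MFP 3 (log2 difference 0.76, SE 0.24, edgeR adjusted p = 0.114). In the whole myeloid class Cd200r4 had 5.88, 10.1 and 16.3 CPM in BrM 1, 2 and 3, against 5.39, 3.30 and 12.5 CPM in MFP 1, 2 and 3, overlapping (log2 difference 0.40, SE 0.47, edgeR adjusted p = 0.955).

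**Figure D4:**
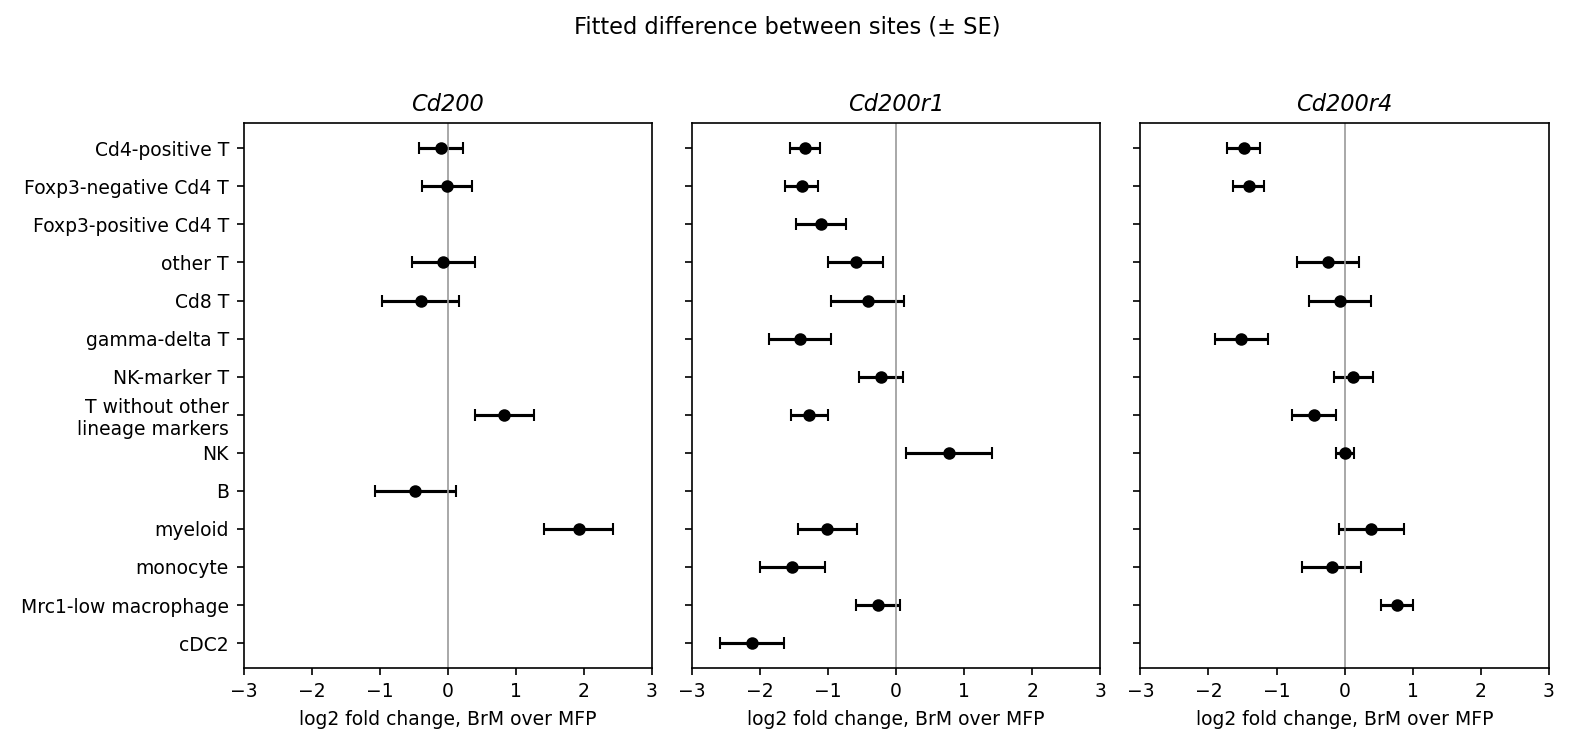
Fitted log2 difference, BrM over MFP, with its standard error (edgeR) for each gene in every class where it could be tested; missing points were below the filter on low counts. Cd200r1 and Cd200r4 lie between -1.52 and -1.11 in the Cd4 and gamma-delta T classes, and Cd200r4 lies at 0.00 in NK cells.

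Over the 3 main classes, edgeR called 0 of 9 member tests, 3 had an unadjusted p under 0.05, and DESeq2 called 2. Over the finer classes edgeR called 0 of 19, with 9 under an unadjusted p of 0.05, and DESeq2 called 3 of 13. An unadjusted edgeR p under 0.05 was common among all genes there too. Its share was lowest in Cd8 T cells, 620 of 10897 genes, and highest in regulatory T cells, 1057 of 4521. Over all genes in these classes DESeq2 called from 5 of 8813 in T cells with NK markers to 228 of 4521 in regulatory T cells. Leaving out BrM 1 brought past the edgeR threshold Cd200r1 (adjusted p = 0.0101) and Cd200r4 (adjusted p = 0.0106) in Foxp3-negative Cd4 T cells and Cd200r1 in T cells without lineage markers (adjusted p = 0.0295). Leaving out BrM 3 did so for Cd200r4 in Foxp3-negative Cd4 T cells (edgeR adjusted p = 0.0323) and for Cd200r1 in T cells without lineage markers (edgeR adjusted p = 0.0483), and leaving out MFP 1 for Cd200r1 in monocytes (edgeR adjusted p = 0.0390). Without BrM 1 edgeR called 1432 of 9500 genes in Foxp3-negative Cd4 T cells and 836 of 9411 in T cells without lineage markers. Other omissions gave adjusted p up to 0.407 for both receptors in Foxp3-negative Cd4 T cells, 0.349 for Cd200r1 in T cells without lineage markers and 0.142 for Cd200r1 in monocytes. With all 6 libraries the share of all genes called by edgeR was 0.0101% in Foxp3-negative Cd4 T cells, 0.0228% in gamma-delta T cells, 0.157% in T cells without lineage markers, 0.137% in type 2 conventional dendritic cells, 2.24% in Mrc1-low macrophages and 0% in Cd8 T cells, T cells with NK markers, NK cells and B cells.

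A list of signalling genes of CD200R1, of DAP12 and of other activating adaptors gave no call. Of its 10 genes (Dok1, Dok2, Rasa1, Nck1, Crkl, Inpp5d, Tyrobp, Fcer1g, Hcst and Syk), 9 were tested in Cd4-positive T cells and 10 in the other T and in the myeloid cells. In these classes edgeR called none in either direction. Their median log2 differences were -0.26, -0.18 and 0.00 in these 3 classes, beside 0.01, 0.00 and 0.00 over all genes tested. Tyrobp, the DAP12 adaptor, averaged 43.2 ± 21.9 CPM in Cd4-positive T cells of BrM and 45.8 ± 22.9 CPM in MFP (log2 difference 0.04, edgeR adjusted p = 0.975). Inpp5d, the lipid phosphatase SHIP1, had 68.2 ± 18.8 CPM in BrM libraries and 115 ± 20.9 CPM in MFP (log2 difference -0.60, edgeR adjusted p = 0.146).

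Of 16 genes of other restraint pairs of myeloid cells, such as Cd47 with Sirpa and Cx3cl1 with Cx3cr1, 7, 12 and 16 were tested in the 3 classes and edgeR called none, with median log2 differences of 0.34, 0.33 and -0.16. In the finer classes 3 calls were made on this list. Siglecg, an inhibitory sialic acid receptor, rose in BrM monocytes, at 23.0 ± 4.10 CPM in BrM libraries and 3.90 ± 3.57 CPM in MFP libraries (SD, n = 3 each; log2 difference 1.97, SE 0.36, edgeR adjusted p = 0.0206). Pirb, an inhibitory receptor for MHC class I, fell in BrM monocytes, at 135 ± 51.0 CPM in BrM libraries and 277 ± 14.3 CPM in MFP (log2 difference -1.02, SE 0.23, edgeR adjusted p = 0.0444). In monocytes 2.3% of the 8656 genes tested were called. Lilrb4a, another inhibitory receptor, fell in BrM regulatory T cells, at 6.53 ± 2.94 CPM in BrM libraries and 37.1 ± 4.99 CPM in MFP (log2 difference -2.41, SE 0.47, edgeR adjusted p = 0.0202), in a class where 4.14% of 4521 genes were called. Each of these 3 calls was lost when some single libraries were left out: Siglecg without BrM 2, BrM 3 or MFP 3 (adjusted p up to 0.112), Pirb without any library but BrM 1 (up to 0.219), and Lilrb4a without BrM 2, MFP 2 or MFP 3 (up to 0.127).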

How the data were processed

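The authors deposited 1 matrix of UMI counts for each of the 6 libraries, not normalized, made with Cell Ranger 4.0 and the mm10 genome, per the submitters' processing notes. Barcodes with at least 500 UMIs, 200 genes and at most 10% mitochondrial UMIs were kept, and the 7% with the highest Scrublet scores in each library were removed as likely doublets (scanpy 1.11.5, Python 3.11.15). Classes were gated on summed marker UMIs, with thresholds set after the data had been seen, and so rest on rebuilt names. Counts were summed per library and class, for classes with 20 cells or more in a library, and fitted with edgeR 4.0.16 (R 4.3.3; TMM, filterByExpr, quasi-likelihood test, threshold of 0.05 on Benjamini-Hochberg adjusted p over all genes), BrM over MFP, with DESeq2 1.42.0 as an alternative. The procedure was tested on simulated data. Shares were compared after thinning cells to 2000 UMIs, with exact two-sided permutation tests. The genes named are the 4 members, the 2 lists, the called list genes and the 5 nearest profiles per member. Members and lists were chosen with earlier results of these data known. Alternatives left out single libraries, the filters, the gates and the kind of library, or added a replicate block. No strand or paralog ambiguity in the counting was examined beyond the shared transcript ends.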

Additional observations from a re-analysis of the deposited data

Results flagged for a closer look

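The order of the sites for Cd200 in T cells other than Cd4-positive ones differed between the kinds of library: the log2 difference, BrM over MFP, came to -1.44 where UMI totals were lower (BrM 1 against MFP 1 and MFP 2) and 1.19 where they were higher (BrM 2 and BrM 3 against MFP 3). The library values were 3.69 CPM in BrM 1, against 11.1 and 8.58 CPM in MFP 1 and MFP 2, and 12.1 and 7.54 CPM in BrM 2 and BrM 3, against 4.55 CPM in MFP 3. The difference between the kinds was not tested, and 1 site of each kind is a single library.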

How the results depend on the processing

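Under DESeq2, no filter on low counts, library kind as a term and the libraries of lower UMI total alone, the log2 differences in Cd4-positive T cells passed the threshold, at -1.34, -1.36, -1.41 and -1.91 for Cd200r1 and -1.50, -1.50, -1.49 and -1.63 for Cd200r4; Cd200r4 also passed in the libraries of higher UMI total (-1.33). Leaving out single libraries gave -1.58 to -1.12 for Cd200r1, -1.79 to -1.31 for Cd200r4 and -0.36 to 0.23 for Cd200 there. In other T cells Cd200 was at -1.44 and 1.19 in the lower and higher kinds, 0.0389 with stricter gates, 0.0426 with 2 Cd4 UMIs and -0.52 to 0.28 without single libraries, while the lower kind alone gave -1.63 for Cd200r1 and -1.16 for Cd200r4, the last at -0.82 to 0.13 without single libraries. In myeloid cells Cd200 passed with library kind as a term (1.87) and in the higher kind (1.89), and Cd200r1 was at 0.0025 in the lower and -1.57 in the higher kind. Cd200r4 in NK cells, near 0, was at -0.0191 with no filter, -0.0719 with the kind term, -0.0497 and -0.119 in the lower and higher kinds and -0.0509 to 0.105 without single libraries. The share of other T cells with Cd200, BrM minus MFP, was 0.237 percentage points thinned to 3000 UMIs and -0.309 to 0.0972 without single libraries, and that of Cd4-positive T cells -1.41 to 0.00844.

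Genes called in Cd4-positive T cells numbered 409 with DESeq2, 812 with no filter, 298 with the kind term, 672 and 1186 in the lower and higher kinds, 4 with the highest Scrublet scores kept and 0 to 1865 without single libraries, the highest without BrM 1. In other T cells they were 36, 211, 307 and 416 under DESeq2, the kind term and the 2 kinds; in myeloid cells 36, 387, 72 and 2288, and 0 to 58 without single libraries, the highest again without BrM 1. CD200R signalling calls were 1 with no filter, 2 with the kind term, 3 and 9 in the 2 kinds and 0 to 4 without single libraries. Restraint pair calls were 1 with DESeq2, 4, 3, 6 and 9 under the same settings and 0 to 1. Member calls in finer classes were 3 with DESeq2, 5 with no filter, 6 with the kind term and 0 to 3 without single libraries. These settings called more of all genes too. In Foxp3-negative Cd4 T cells they called 202 of 9857 with DESeq2, 523 of 17433 with no filter and 256 of 9857 with the kind term, against 1 in the main fit. The causes were not tested.

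Deviations of same-numbered libraries from their site means had r of 0.20, -0.22 and 0.25 for numbers 1, 2 and 3 in Cd4-positive T cells. The values were 0.36, -0.52 and 0.49 in other T cells and 0.54, -0.31 and 0.33 in NK cells. Numbers 1 and 3 join libraries of the same kind and number 2 joins different kinds, so whether the numbers pair libraries cannot be told. With the replicate block the log2 difference was -1.33 for Cd200r1 and -1.52 for Cd200r4 in Cd4-positive T cells (edgeR adjusted p = 0.0794 for both). The block called 1 gene there, 18 in myeloid cells and 1 member test in the finer classes. Clusters in place of gates put Cd200r1 in B cells at 1.12 CPM. Few UMIs limit the result for Cd200r3 throughout.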
